A study of Drosophila melanogaster with 4 samples.

Results

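The Dam-Pr-set7 summits described here lie in the sequence classes of the Drosophila melanogaster genome that are largely heterochromatic. They were chosen by position alone, on build dm6: every summit on chromosome 4, on chromosome Y, on a sequence whose name contains Un_ or ends in _random, and every summit beyond position 22000000 of 2L, 22950000 of 3L and 22000000 of X or before position 4200000 of 3R. The rule gave 158 of 2876 summits in replicate 1 (5.49%) and 208 of 4281 summits in replicate 2 (4.86%). Chromosome 4 held 51 summits in replicate 1 and 67 in replicate 2. Pericentric 2L held 36 and 43, pericentric 3L held 29 and 40, pericentric 3R held 8 in each, and pericentric X held 14 and 11. Chromosome Y held 0 and 3, unplaced scaffolds held 16 and 31, and the _random scaffolds, which are assigned to a chromosome but not placed on it, held 4 and 5. The rule uses no value of any summit, but the boundaries are fixed positions and not a measured edge of heterochromatin.

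Targeted DamID records where a protein meets chromatin: a protein fused to the bacterial Dam methylase leaves methylated adenines at nearby GATC sites, which are then cut out, amplified and sequenced. All larvae carried the grh-Gal4 driver, with UAS-Dam alone in 2 control samples and with UAS-Dam-Pr-set7 from the pUASTattB-LT3-NDam-Pr-set7 construct in the other 2. Eggs were gathered over 6 h and kept at 25 °C until hatching, and larvae then spent 24 h at 29 °C. By the study's design text, the samples came from 2 batches with 1 control and 1 fusion sample each, which means that a difference between the replicates and a difference between the batches cannot be told apart. The labels name the cells as neural stem cells. That identity rests on the driver, and a summit list holds no marker level with which to check it. The labels give neither the sex of the larvae nor whether the samples came from separate cultures, and the spread between the replicates may therefore be technical. The Dam-alone samples were not analysed here, so every value below describes the fusion libraries, with no control track beside it. Replicates 1 and 2 are names given in order of deposit. Each summit has a height, the number of fragments piled up at its highest base, which depends on library depth; the depth itself is unknown, and heights are therefore also given as a percentile within their own list. Over all summits the median height was 42 fragments (12 to 279) in replicate 1 and 37 fragments (11 to 204) in replicate 2.

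Pericentric heterochromatin surrounds the centromeres, is rich in satellite repeats and transposons, and is packed with histone H3 methylated at lysine 9 and its reader HP1a. A small number of genes live there, among them light and several ribosomal protein genes, and some of them need that environment to be expressed. The small chromosome 4 mixes the same marks with many active genes, to which the chromosome-specific protein POF binds. Pr-set7 is the methyltransferase that places the single methyl group on lysine 20 of histone H4, a mark tied to cell-cycle progression and chromosome condensation. The treatment of reads that map to more than 1 place, which bears on every count in repeated sequence, is not given in the sources used.

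With all summits counted, paired or not, chromosome 4 was the most densely covered of the classes whose length could be given, which leaves out the scaffolds. It carried 38.7 summits per Mb in replicate 1 (95% exact Poisson interval 28.8 to 50.8) and 50.8 in replicate 2 (39.4 to 64.5), over 1.32 Mb. The rest of the arms, which is 2R and the parts of 2L, 3L, 3R and X outside the boundaries, carried 22.6 per Mb (21.8 to 23.5) and 33.9 per Mb (32.9 to 34.95), so chromosome 4 stood 1.71 and 1.499 times as high. In neither replicate did the interval of chromosome 4 overlap that of the pooled rest of the arms. Against single arms in replicate 2 it did overlap the rest of 2L (34.4 to 39.5) and the rest of 3R (35.8 to 40.4). All these intervals cover counting error only, and neighbouring summits are not independent.

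The pericentric ends fell into different ranges. Pericentric 2L, 1.42 Mb long, had 25.4 summits per Mb in replicate 1 (17.8 to 35.2) and 30.4 in replicate 2 (21.97 to 40.9), against 23.4 and 36.9 on the rest of 2L, a ratio of 1.09 and 0.823. Pericentric 3L had 5.73 per Mb (3.83 to 8.22) and 7.90 (5.64 to 10.8) over 5.07 Mb, which was 0.237 and 0.218 times the rest of that arm. Pericentric 3R was the sparsest of the 4, with 1.90 per Mb in each replicate (0.822 to 3.75), or 0.0812 and 0.0501 times the rest of 3R. Its value depended on the boundary: the mean of the replicates was 5.53 per Mb with the boundary 500 kb further from the centromere and 1.22 with it 500 kb closer. Pericentric X lay between, with 9.10 (4.98 to 15.3) and 7.15 (3.57 to 12.8), or 0.513 and 0.319 times the rest of X. The intervals of 2L therefore include the value of the rest of its arm, and those of 3L, 3R and X lie below theirs in both replicates.

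**Figure D1:**
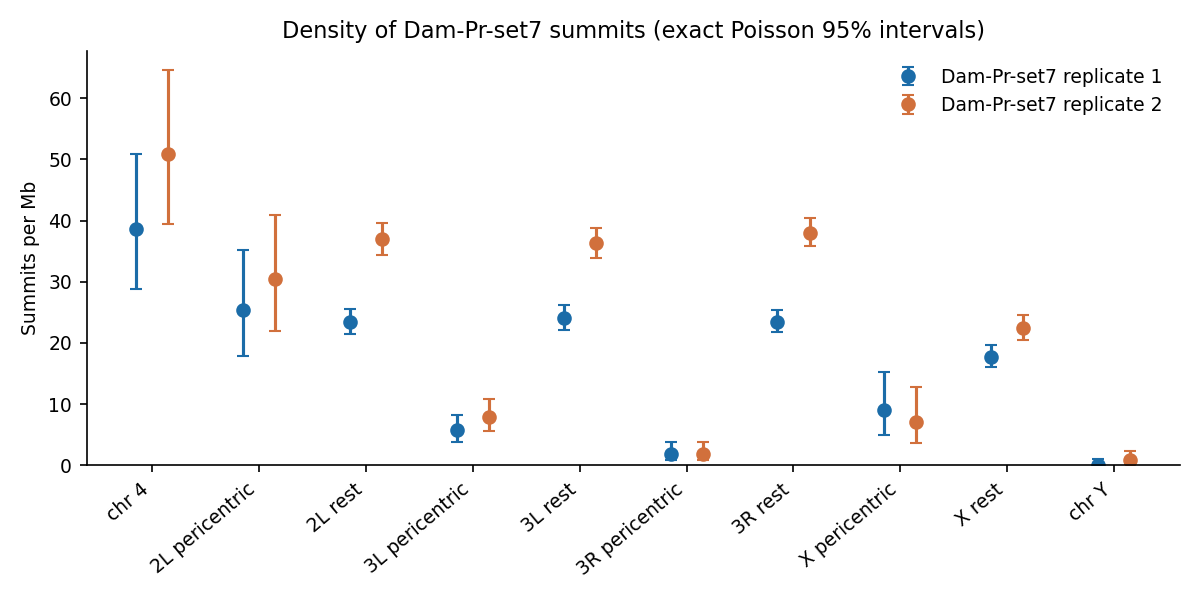
Summits per Mb (vertical axis) on chromosome 4, each pericentric end, the rest of the same arm and chromosome Y; points are the 2 Dam-Pr-set7 replicates and error bars are 95% exact Poisson intervals. Chromosome 4 stands highest at 38.7 and 50.8 per Mb, pericentric 2L is near the rest of 2L, and pericentric 3R is at 1.90.

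Set against genes in place of bases, the order changed. Pericentric 2L has 37 protein-coding genes in the RefSeq annotation and held 0.973 summits per gene in replicate 1 and 1.16 in replicate 2. Chromosome 4, with 80 coding genes, held 0.638 and 0.838 summits per gene, and pericentric 3L, with 40, held 0.725 and 1. The rest of the arms held 0.199 and 0.297. Pericentric X, with 59 coding genes, was the class nearest to that level at 0.237 and 0.186, the second of which is below the rest of the arms.

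Replicate 2 listed more summits than replicate 1, but not evenly. Outside these classes its list was 1.498 times as long (4071 against 2718 summits). On chromosome 4 the factor was 1.31, and over the 4 pericentric ends together it was 1.17 (102 against 87). Pericentric X was the class with fewer summits in replicate 2, at 0.786 times replicate 1. Unplaced scaffolds went the other way, at 1.94 times. Whether depth or repeat content sets these factors was not tested.

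Where the replicates placed summits at the same spot was asked next, with a partner defined as a summit of the other replicate within 500 bp. Over all summits, 69.1% of replicate 1 and 46.4% of replicate 2 had a partner. On chromosome 4 the shares were 43.1% (22 of 51; exact binomial interval 29.3 to 57.8) and 32.8% (22 of 67; 21.8 to 45.4). Both intervals lie below the shares of the rest of the arms, 70.0% (68.3 to 71.7) and 46.8% (45.2 to 48.3), the replicate 2 pair narrowly. Chromosome 4 thus combined a high density with a low share of summits found in both lists. Its 22 paired summits in 1.32 Mb stand beside 1903 and 1904 in the 120 Mb of the rest of the arms, a similar density. At the 500 bp distance, the higher density of chromosome 4 therefore lay mostly in its 29 and 45 summits without a partner. That split depends on the distance and does not hold in replicate 1 at 2000 bp. Within 2000 bp, 36 of 51 and 34 of 67 had a partner, beside 2067 and 2286 summits on the rest of the arms.

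The other classes varied. On pericentric 2L 20 summits of each replicate were paired, 55.6% and 46.5%. On pericentric 3L 18 were paired, 62.1% and 45%, and on pericentric X 7 were paired, 50% and 63.6%. On pericentric 3R 2 of 8 were paired in each replicate, 25%. Unplaced scaffolds had the highest share in replicate 1, 13 of 16 or 81.3% (54.4 to 95.95), and 41.9% in replicate 2. Of the _random scaffolds 1 summit was paired in each replicate, and none of the 3 on chromosome Y was.

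The share on chromosome 4 depended on the distance allowed. Within 2000 bp, 70.6% and 50.7% of its summits had a partner, against 76.0% and 56.2% on the rest of the arms. The gap was also there among tall summits. Of those above the median height of their list, 15 of 32 (46.9%) and 13 of 34 (38.2%) on chromosome 4 had a partner within 500 bp, against 77.5% and 67.9% on the rest. On pericentric 2L the same selection gave 13 of 14 (92.9%) and 16 of 21 (76.2%). For pericentric 3L it gave 6 of 7 and 7 of 13, for 3R 1 of 2 and 2 of 2, and for X 2 of 4 and 4 of 6.

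**Figure D2:**
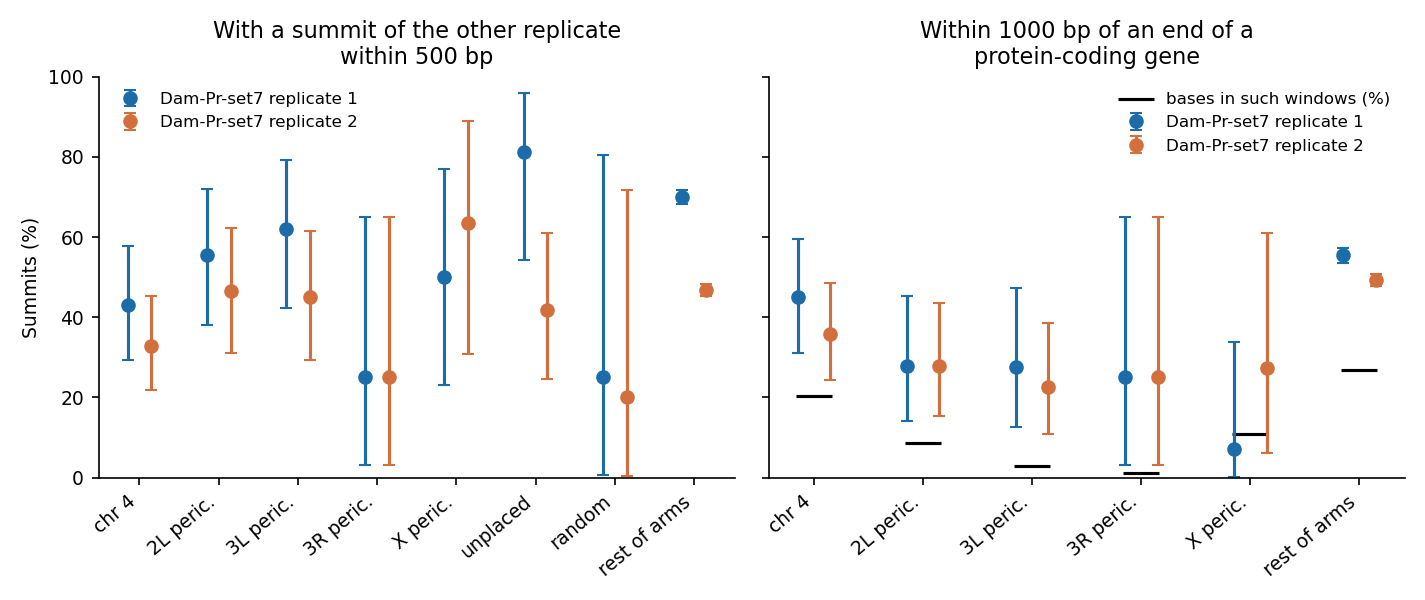
Percent of summits (vertical axis) with a partner within 500 bp and percent within 1000 bp of a coding gene end, by sequence class; points are the replicates, error bars are 95% exact binomial intervals and black lines are the percent of bases within 1000 bp of a gene end. Chromosome 4 lies below the rest of the arms in the share with a partner, 43.1% against 70.0% in replicate 1 and 32.8% against 46.8% in replicate 2.

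Part of the disagreement on chromosome 4 was gathered in stretches. From position 42877 to 61779, 7 summits of replicate 2 followed each other with none of replicate 1 between them, at 20 to 46 fragments. They cover the end of PlexB, a semaphorin receptor, and ci, the transcription factor of the Hedgehog pathway. From position 404667 to 466166, 6 more followed each other, at 35 to 100 fragments. They began in the sequence beside dati, a zinc finger gene, and ended inside Taf3, a subunit of the general factor TFIID. Between them lies lgs, a coactivator of the Wingless pathway, which had no summit near an end or inside. The nearest summit of the run was 10615 bp from it. Such runs of 5 or more were not particular to chromosome 4, since the rest of the arms held 116 of them in replicate 2 and 2 in replicate 1. In replicate 2 they took in 13 of the 67 summits of chromosome 4 and 700 of the 4071 on the rest, a similar share. The other classes described here held none.

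The summits on chromosome 4 stood higher in their list in replicate 1 than in replicate 2. Their median height was 56 fragments (15 to 214) in replicate 1 and 39 (12 to 182) in replicate 2, at the percentiles 63.3 and 52.9 of their lists, beside 50.7 and 50.5 for the rest of the arms. Above the percentile 90 were 13.7% and 8.96% of them, beside 10.1% of the rest in each replicate. Pericentric 2L had medians of 34 (14 to 186) and 35 (14 to 195) fragments, at the percentiles 39.6 and 47.6. Pericentric 3L was low, with medians of 25 (15 to 85) and 24 (12 to 83) fragments at the percentiles 22.7 and 27.3. No pericentric 3L summit was above the percentile 90 of its list, and 55.2% and 45% of them were at or below the percentile 25, against 25.7% and 23.5% on the rest of the arms.

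The small classes differed from each other. Pericentric 3R had its median at the percentiles 23.8 and 28.3 and a highest summit of 135 and 160 fragments. Pericentric X had its median at 41.3 and 62.6, with highest summits of 166 and 68 fragments. Unplaced scaffolds had theirs at 39.1 and 44.6, with highest summits of 171 and 108. The 3 summits on chromosome Y had 12, 16 and 16 fragments, close to the lowest height in their list.

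**Figure D3:**
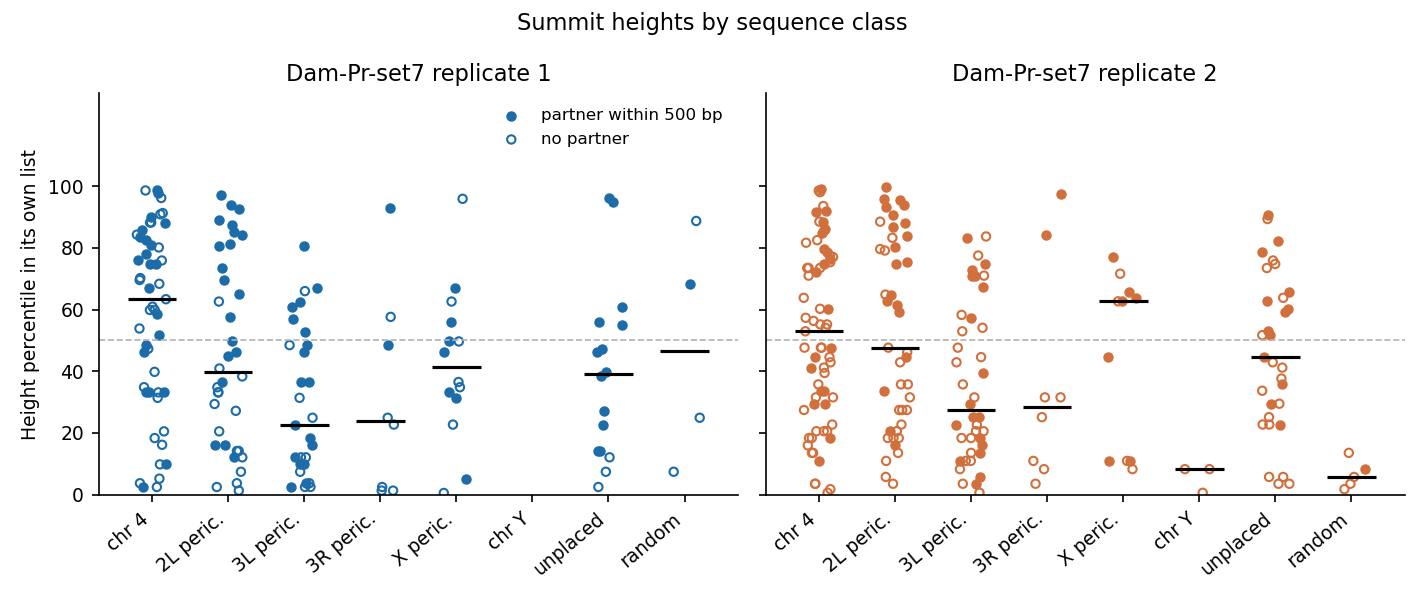
Height percentile of each summit within its own list (vertical axis, 0 to 100) by sequence class, with replicate 1 on the left and replicate 2 on the right; filled points have a partner within 500 bp, open points have none, and black bars are medians. Chromosome 4 has its medians at 63.3 and 52.9, pericentric 3L at 22.7 and 27.3, and tall summits without a partner are seen on chromosome 4 in both panels.

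Paired summits lie within 500 bp of each other by definition, and most were much closer. The 22 pairs of chromosome 4 were a median of 20 bp apart, the 20 of pericentric 2L 14.5 bp and the 18 of pericentric 3L 26 bp, against 22 bp for 1903 pairs on the rest of the arms. Heights of paired summits moved together, with a Pearson r of heights of 0.779 on chromosome 4, 0.906 on pericentric 2L, 0.772 on pericentric 3L and 0.899 on the rest. Spearman's rho was 0.744, 0.884, 0.783 and 0.886 in the same order. These correlations describe points that share 2 libraries. The direction differed. Replicate 2 was the higher one in 7 of 22 pairs on chromosome 4, with a median ratio of 0.899. For pericentric 3L it was the higher one in 6 pairs and the lower one in 10, with a median ratio of 0.952. For pericentric 2L it was the higher one in 13 of 20, with a median ratio of 1.09. On the rest of the arms it was the higher one in 1292 pairs and the lower one in 562, with a median ratio of 1.14, which contains the unknown difference in depth.

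**Figure D4:**
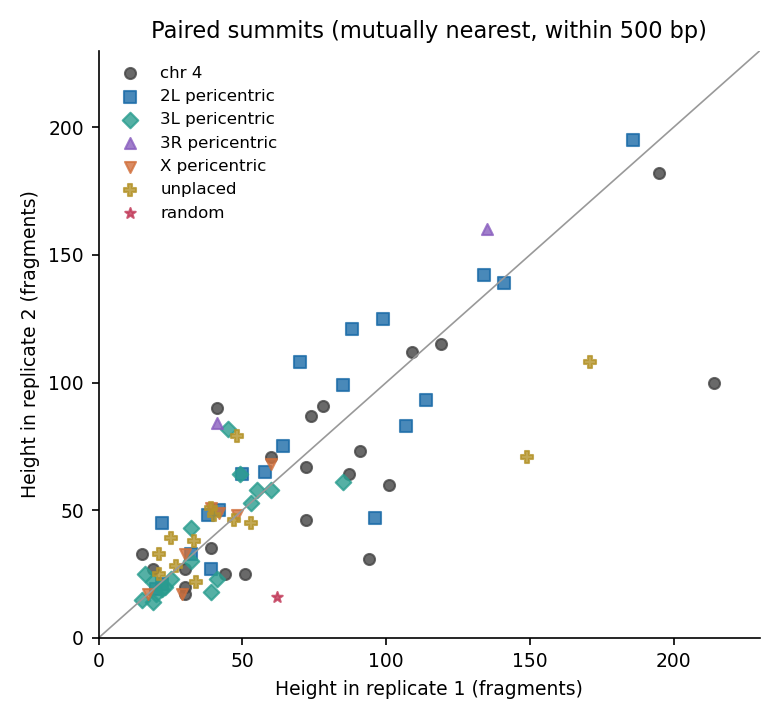
Height of each paired summit in replicate 1 (horizontal axis, fragments) and replicate 2 (vertical axis, fragments), with a marker for each sequence class and a grey line at equal heights. Chromosome 4 lies mostly below the line of equal height, with replicate 2 higher in 7 of 22 pairs, and pericentric 2L mostly above it, with 13 of 20.

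Genes were read by position, as a summit within 1000 bp of either end of a protein-coding gene. The gene table used gives no strand, so starts and 3' ends cannot be told apart. Over the 6 arms, chromosome 4 included, 54.3% of the summits of replicate 1 and 48.5% of replicate 2 were that close to an end. On chromosome 4 it was 45.1% (23 of 51) and 35.8% (24 of 67), where such windows cover 20.4% of the bases. On the rest of the arms it was 55.4% and 49.3%, with windows on 26.7% of the bases. The share over the share of bases was 2.21 and 1.75 on chromosome 4 and 2.07 and 1.84 on the rest.

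In gene-poor pericentric sequence few summits were near a gene end, but their share was above the share of bases in such windows, except on pericentric X in replicate 1 and on chromosome Y. On pericentric 2L 27.8% and 27.9% were near an end, 3.20 and 3.21 times the 8.69% of bases. On pericentric 3L 27.6% and 22.5% were, 9.53 and 7.77 times the 2.90% of bases. On pericentric X 7.14% and 27.3% were, from 1 and 3 summits, 0.658 and 2.51 times the 10.9% of bases. Inside coding genes lay 62.7% of the chromosome 4 summits in each replicate, which is below the 77.2% of its bases that are genic. For the rest of the arms the shares were 70.7% and 70.5%, with genes on 69.5% of the bases. On pericentric 2L 50% and 48.8% lay inside genes, which cover 29.4%. Pericentric 3L had 34.5% and 35% inside, with 35.0% of bases genic. Pericentric 3R had 12.5% and 25%, with 69.7%, and pericentric X had 28.6% and 18.2%, with 20.6%.

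Coding genes with a summit near an end in both replicates were counted as reached. Of all 13946 coding genes on the arms and Y, 14.3% were, with 18.3% having such a summit in replicate 1 and 22.4% in replicate 2. On chromosome 4 13 of 80 were (16.3%, 8.95 to 26.2), a share near that background. On pericentric 2L 10 of 37 were (27.0%, 13.8 to 44.1), on 3L 6 of 40 (15%), on 3R 1 of 14, on X 1 of 59 (1.69%) and on Y 0 of 24. The interval of pericentric 2L includes the background, and that of pericentric X (0.0429 to 9.09) lies below it. The counts follow the distance allowed, with 5 genes of chromosome 4 and 6 of pericentric 2L within 500 bp, and 23 of chromosome 4 within 2000 bp.

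Transcription factors and chromatin genes are a large group on chromosome 4, and 3 of the 19 listed were reached in both replicates. The counts were 6 of 19 in replicate 1 and 5 of 19 in replicate 2, each a larger share than the 18.3% and 22.4% over all coding genes. The share in both, 15.8%, is near the 14.3% over all coding genes. The tallest of these 3 was onecut, a homeodomain factor of neurons, with 195 fragments in replicate 1 at position 607659 and 182 in replicate 2 at 607665. Both summits lay just outside the gene, 10 and 16 bp from its end. The second was pan, the TCF factor of the Wingless pathway, with 171 fragments in replicate 1 and 170 in replicate 2. Its summits were 918 bp apart, at 69920 inside the gene and 69002 outside it, so they share a gene end but not a site. MED26, a subunit of the Mediator complex, had 74 and 87 fragments at 788907 and 788877.

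Other members of that group were seen in 1 replicate. The zinc finger homeodomain gene zfh2 had a summit of 208 fragments at 501647 in replicate 1, 163 bp from its end, and the nearest summit of replicate 2 was 14145 bp away. The gene ci had 3 summits near its ends in replicate 2, the highest at 41 fragments, and none in replicate 1. Mitf, a bHLH factor of lysosomal genes, had 74 fragments in replicate 1 near its end and none there in replicate 2. The Pax6 genes ey and toy had no summit near an end but paired summits inside: ey 41 and 90 fragments at 717543 and 717557, and toy 72 and 67 fragments at 999859 and 999851.

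Among 16 signalling and adhesion genes of chromosome 4, 4 were reached in both replicates (25%, beside 14.3% over all coding genes), with 6 in each (beside 18.3% and 22.4%). myo, a ligand of the TGF-beta family, had 91 and 73 fragments at 695681 and 695653, inside the gene. Ephrin, the ligand of the Eph receptor, shared its summit with the neighbouring ND-49, a subunit of respiratory complex I. That summit was at the same base, 571010, in both replicates, with 51 and 25 fragments. The receptor gene Eph had 31 fragments in replicate 2 and no summit in replicate 1. PlexA, the second semaphorin receptor, had 30 and 20 fragments, and CaMKII, the calcium/calmodulin-dependent kinase, had 17 and 26 at sites 848 bp apart. bt, which encodes the giant muscle protein projectin, had 3 summits near its ends in replicate 1, up to 110 fragments, and none in replicate 2.

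Of 8 synaptic and transport genes 1 was reached in both, or 12.5%, near the 14.3% over all coding genes. It was Arl4, a small GTPase of the Arf family, with 101 and 60 fragments at 179437 and 179420. The tallest paired summit inside a gene of chromosome 4 was in unc-13, which primes synaptic vesicles for release, with 214 fragments at 903727 and 100 at 903720; each replicate had 3 summits in that gene. Syt7, a synaptotagmin, had a pair at 303740 and 303760 with 60 and 71 fragments, and in replicate 2 a further summit of 176 fragments at 305847. Of 10 housekeeping and translation genes none was reached in both, beside the same 14.3%, and 10 genes are few for such a share. RpS3A, a ribosomal protein gene, had 31 fragments in replicate 1 alone, and gw, which acts in microRNA silencing, had 41 near its end in replicate 2 alone. Inside gw, 1314 and 1337 bp from an end, both replicates had a summit, of 78 and 91 fragments. The other chromosome 4 genes reached in both were CG32006 (94 and 31 fragments), CG46466 (96 and 41, at sites 1323 bp apart), Rnf11, a RING finger gene (72 and 46), and CG11360 (19 and 27).

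Past the last coding gene of chromosome 4, Cadps, which ends at 1271759, replicate 1 had 6 summits and replicate 2 had 3, and all 3 were paired. The tallest pair had 119 fragments at 1318630 and 115 at 1318723, the latter the summit nearest to the end of the chromosome. Replicate 1 also had a summit of 125 fragments at 1306530 with no partner.

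On pericentric 2L the summits followed the genes for part of the way. The first 500 kb past the boundary held 17 and 22 summits and 23 coding genes, the next 500 kb held 14 and 13 summits and 9 genes, and the last 416 kb held 5 and 8 summits and 5 genes. The tallest pair was inside CG42748, with 186 fragments at 22134572 and 195 at 22134578. Tallest among the genes reached was lt, or light, which encodes the vesicle-sorting protein Vps41 and is the textbook case of a gene that needs heterochromatin. Its summit had 134 fragments at 22925580 and 142 at 22925599, inside the gene and 785 and 804 bp from an end. A further pair lay 6815 and 6825 bp outside lt, with 114 and 93 fragments.

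Other pericentric 2L genes reached in both replicates were Nubpl, an iron-sulphur assembly factor of complex I, with 88 and 121 fragments, and Clamp, a zinc finger protein that binds GA repeats in dosage compensation, with 107 and 83. CG40006 had 64 and 75 fragments, CG3651 had 58 and 65, and CG17493 had 42 and 50. The lowest were Cht10, a chitinase gene, with 32 and 33, Gpb5 and Tim23 with a shared summit of 20 and 19, and Tif-IA, a factor of RNA polymerase I, with 18 and 22 at sites 553 bp apart. RpL21, a ribosomal protein gene, had 82 fragments in replicate 2 alone. The ribosomal protein gene RpL5 and cta, a G protein subunit of gastrulation, had no summit near an end or inside in either replicate. tio, a zinc finger gene related to teashirt, had a pair inside with 99 and 125 fragments. Slmap had 2 pairs outside the gene, the taller with 141 and 139 fragments, 4680 and 4718 bp away.

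On pericentric 3L the reached genes had lower summits. CG40045 had 85 fragments at 24028047 and 61 at 24028108. vtd, the cohesin subunit Rad21, had 55 and 58 fragments at 27136006 and 27135980, and scro, an NK2-type homeobox gene, had 32 and 43 at 24723575 and 24723547. CG33217 had 23 and 20 fragments and nrm, an adhesion gene of the immunoglobulin family, had 16 and 25. Mes2 counts among the 6 because the gene reaches past the boundary. Its summits, of 182 fragments in each replicate at 22945160 and 22945125, lie just outside and are not among the summits described.

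Some long genes of 3L had summits inside but not near an end, and others, among them lovit at 434041 bp, had neither. AGO3, an Argonaute of the piRNA pathway, had 2 and 4 summits within its 135048 bp, the highest 59 and 58 fragments at different sites. A lower pair also lay inside AGO3, with 32 and 30 fragments at 23584176 and 23584136. The 3L genes Snap25, nvd, Dbp80 and eIF4B had none near an end and none inside. A pair of 45 and 82 fragments lay 2436 and 2440 bp outside Snap25, a component of the synaptic fusion machinery. RpL15 had 83 fragments, the highest on pericentric 3L in replicate 2, and the nearest summit of replicate 1 was 3411 bp away. Set1, the H3K4 methyltransferase gene, shared a summit of 35 fragments with MED21 in replicate 2 alone.

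**Figure D5:**
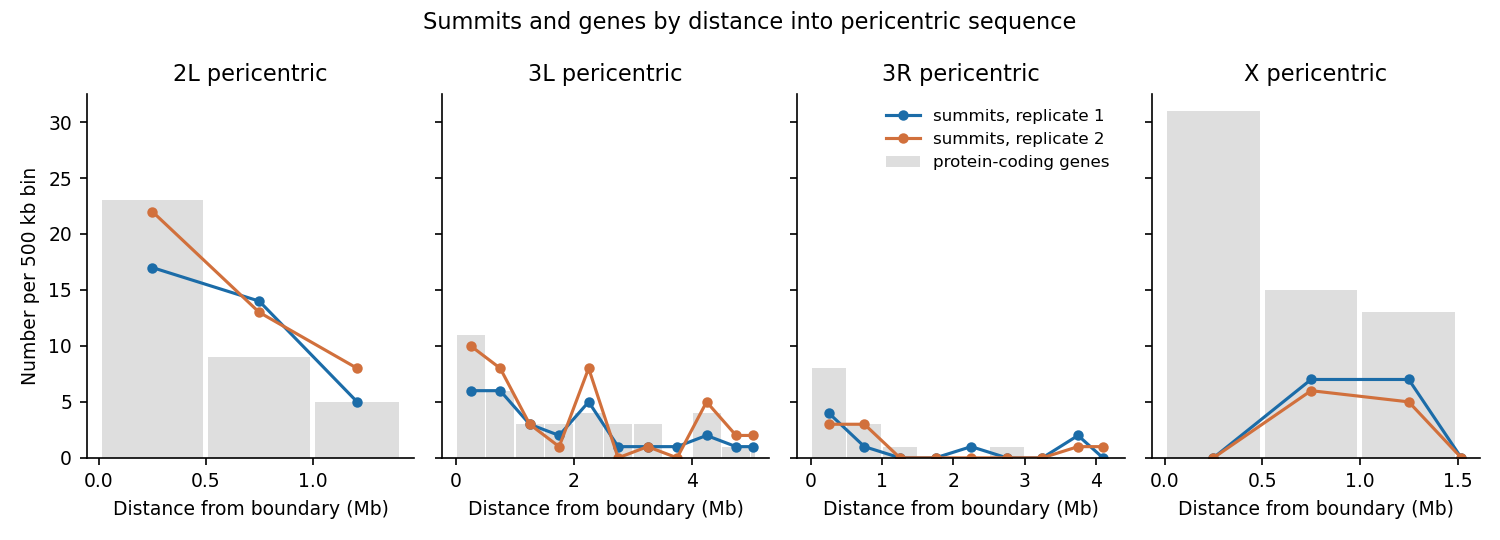
Summits of each replicate (lines) and protein-coding genes (grey bars) per 500 kb bin (vertical axis, number) by distance in Mb from the boundary into pericentric 2L, 3L, 3R and X. The bins nearest the centromere are shorter, 416 kb on 2L, 65.2 kb on 3L, 200 kb on 3R and 38.3 kb on X. Pericentric 2L falls from 17 and 22 summits to 5 and 8 in its shorter last bin, and the first X bin holds 31 genes and 0 summits.

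On pericentric 3R 8 summits in each replicate were spread over 4.20 Mb, 4 and 3 of them in the 500 kb next to the boundary, where 8 of the 14 coding genes lie. Parp1, which attaches poly(ADP-ribose) to chromatin proteins, was the gene reached in both, with 41 fragments at 3587722 and 84 at 3587736, 668 and 682 bp outside it. The tallest pair, 135 fragments at 4053117 and 160 at 4053122, was 24822 and 24817 bp from the nearest coding gene, CG42402. Myo81F, an unconventional myosin gene spread over 1965857 bp, held 1 summit, of 15 fragments in replicate 1.

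On pericentric X the 500 kb next to the boundary held 31 coding genes and 0 summits in either replicate. The following 500 kb held 7 and 6 summits, and the next held 7 and 5. ATbp was the gene reached in both, with 60 fragments at 23105799 and 68 at 23105825. Inside su(f), a factor of mRNA 3' end cleavage, a pair had 39 and 51 fragments, 1357 and 1369 bp from an end. The tallest summit, 166 fragments at 23217144 in replicate 1, lay 5403 bp from the nearest summit of replicate 2, which had 59 fragments, and 108813 bp from the nearest coding gene. The 31 genes without summits include a series of close copies, CG40813 and CG46504 to CG46522 among them, in which reads could map to several places; whether this bears on the 0 was not tested.

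Chromosome Y is almost wholly heterochromatic and carries genes needed for male fertility that act in the testis. Its 3 summits, all in replicate 2, were at 893640, 913073 and 987291, between ARY and Ppr-Y, 189592 bp or more from a coding gene end. In replicate 1 a count of 0 over 3.67 Mb has an exact Poisson upper bound of 1.01 summits per Mb, and replicate 2 had 0.818 (0.169 to 2.39). None of the 11 listed fertility genes had a summit at an end or inside in either replicate.

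Of 16 genes known from pericentric heterochromatin that lie within the boundaries, 4 were reached in replicate 1, 6 in replicate 2 and 4 in both: lt, nrm, vtd and Parp1. The share in both is 25%, beside 14.3% over all coding genes, which had 18.3% in replicate 1 and 22.4% in replicate 2. Of these 16 genes, 10 had no summit near an end in either replicate, beside 10260 of all 13946 coding genes, which is a larger share. With summits inside the gene counted too, 8 of the 16 had none.

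Unplaced scaffolds are pieces of assembled sequence, many of them repeats, that have no known chromosome. Summits fell on 7 of them in replicate 1 and 14 in replicate 2, with 5 shared among 16. The scaffold Un_DS483562v1 carried the most, 8 summits in replicate 1 at 21 to 48 fragments and 14 in replicate 2 at 14 to 79. All 8 of replicate 1 had a partner, over 25.8 kb. The tallest of these pairs had 48 fragments at 12946 and 79 at 12933.

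The scaffold Un_CP007120v1 had the tallest summits of the class. Replicate 1 had 171, 34 and 149 fragments at 42221, 66286 and 71857, and each had a partner, with 108, 22 and 71 fragments. Replicate 2 had 2 more there, 62 fragments at 53789 and 103 at 76230. The other shared scaffolds had 1 summit each, paired on Un_DS483770v1 (53 and 45 fragments) and Un_DS483906v1 (39 and 51) and unpaired on Un_CP007081v1 (15 and 32). These 2 scaffolds with several summits thus hold 11 of the 13 pairs, and the high share with a partner in replicate 1 rests on them. Genes on these scaffolds were not matched.

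The _random scaffolds had 4 summits on 4 scaffolds in replicate 1 and 5 on 5 in replicate 2, with 1 shared among 8. On the shared one, X_DS483892v1_random, the heights were 62 and 16 fragments at 2591 and 2560. The tallest, 112 fragments on Y_CP007111v1_random, was seen in replicate 1 alone. Of the _random summits 3 in replicate 1 and 1 in replicate 2 were on scaffolds assigned to Y.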

How the data were processed

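The assay was targeted DamID on larval genomic DNA, with 4 samples. Per the labels' protocols, DpnI cut the methylated sites and the released DNA was amplified by PCR before sequencing with a MiSeq. The tools named in the submitters' processing notes are bcl2fastq (version 2.19.0.316), Bowtie2 (version 2.2.6) and MACS (version 1.4.2), with build dm6. Not given in the sources used are the control library, the cutoffs, the duplicate filter and how multi-mapping reads were treated. For both Dam-Pr-set7 samples a separate list of 1 bp summits was deposited, whose value is a signal made by the authors, the pileup height in fragments, not scaled to depth.

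Members were selected by position and the replicates compared by distance: a partner within 500 bp, a gene end within 1000 bp. Gene positions came from the RefSeq table for Release 6 plus ISO1 MT (17872 genes, 13946 protein-coding on the arms and Y), which has the sequence of dm6; strand was not given there, so annotated starts were not used. Arm length was taken to the last gene end or summit. Intervals are exact Poisson and exact Clopper-Pearson at 95%; they cover counting error only, since PCR fragments are not independent molecules, and read depth is unknown. A fixed rule named the genes reached in both replicates, ranked by mean height percentile, up to 12 for chromosome 4 and 5 for each pericentric end. The 6 lists (85 terms) were counted over their members found in these classes, but only some of these members are named. The listed genes named, any other genes, and the runs of summits from 1 replicate were chosen after their values were seen. Members and lists were chosen with earlier results of these data known. No test between groups was run, since Dam-alone libraries were left out here. Alternatives were the pairing and gene distances, summits above the median height, shifted boundaries and leaving out each replicate. The functions were tested on simulated data. Tables were handled with pandas 2.3.3 and numpy 2.4.6, intervals with SciPy 1.17.1 and plots with matplotlib 3.10.9, under Python 3.11.15.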

Additional observations from a re-analysis of the deposited data

How the results depend on the processing

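Mean density over the replicates was 44.7 summits per Mb on chromosome 4, 27.9 on pericentric 2L, 6.81 on 3L, 1.90 on 3R and 8.13 on X. With summits above the median height alone it was 25.0, 12.4, 1.97, 0.476 and 3.25, in the same order, as fewer summits enter. Moving the boundary 500 kb towards the centromere gave 21.8 on 2L, 1.22 on 3R and 12.04 on X, and moving it 500 kb away gave 10.2 on 3L, 5.53 on 3R and 6.62 on X.

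A partner distance of 2000 bp gave 70.6% and 50.7% on chromosome 4 and 72.2% and 65.1% on pericentric 2L, for replicates 1 and 2. Above the median height the share was 92.9% and 76.2% on pericentric 2L, 85.7% on 3L in replicate 1, 100% of 2 summits on 3R in replicate 2 and 100% of 5 on unplaced scaffolds in replicate 1. Gene ends within 500 bp took 21.6% and 19.4% of the chromosome 4 summits and 0% on 3R in each replicate, and within 2000 bp 52.2% on chromosome 4 in replicate 2.

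Genes reached in both replicates numbered 5 on chromosome 4, 6 on 2L, 3 on 3L and 0 on 3R within 500 bp, 23 on chromosome 4 and 3 on X within 2000 bp, 0 on 3R and 2 on X with a summit inside the gene, and 7, 5, 3 and 0 on chromosome 4, 2L, 3L and 3R with summits above the median height. With 1 replicate left out, the count is of genes reached in the other, 22 to 24 on chromosome 4, 8 to 10 on 3L, 2 on 3R and 1 to 2 on X. No paired analysis was possible because the labels give no replicate numbers and only the Dam-Pr-set7 lists were used.

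Limits apply throughout. With 2 replicates, each in its own batch by the design text, and no Dam-alone list, the share of a summit's height that Dam alone would give was not tested. Small classes rest on few summits, and depth limits what a count of 0 says.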

Other observations

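Outside the classes described, replicate 2 listed 2 summits on the mitochondrial genome, of 203 fragments at position 4925 and 34 fragments at 17341, and replicate 1 listed none there.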
